A study of Schmidtea mediterranea with 60 samples.

Results

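The transcripts of planarian tails 1 day after amputation (1dpa) were compared between knockdown of opa1 and knockdown of opa1 together with drp1. The comparison uses 6 of the 60 libraries of the series, all those labelled as tails at 1dpa with opa1 RNAi, with or without drp1. In 3 of them the animals had been given opa1 and egfp double-stranded RNA (dsRNA), called opa1 RNAi tails here, and in 3 they had been given opa1 and drp1 dsRNA, called combined RNAi tails. Both groups therefore carried opa1 dsRNA, and drp1 dsRNA took the place of egfp dsRNA, the control sequence. The series holds 36 tail libraries of Schmidtea mediterranea in 12 groups (egfp with egfp as the control, opa1 with egfp, and opa1 with drp1, each at 0dpa, 6hpa, 1dpa and 2dpa) and 24 whole-body libraries in 8 groups (egfp, opa1, drp1 or sod2 RNAi, sampled at 1dpa or under the time label homo, which the sources used here do not explain), with 3 libraries a group. Strain, age and the way the dsRNA was given are not in the labels, nor whether a library is 1 animal or a pool. The p-values therefore cover the spread among these libraries alone, and that spread may be technical. For the tails it was estimated over all 36 tail libraries, not over the 6 compared.

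Mitochondria constantly fuse and divide. The opa1 product is a GTPase needed to fuse inner mitochondrial membranes and to shape their folds, and the drp1 product is a dynamin-related GTPase that pinches mitochondria apart, so loss of the first is known to leave mitochondria fragmented and loss of the second to leave them elongated. Planarians regrow missing parts from dividing stem cells called neoblasts, and the first days after a cut are known for a general wound response followed by the growth of new tissue. The comparison asks how the transcripts of an opa1 RNAi tail differ when division of mitochondria is targeted as well.

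The deposited files identify each feature by an ID and do not pair it with a gene name, so neither targeted gene, no pathway and no marker of tail tissue or of a cell type could be looked up. The features below are described by ID and by what they did. Values are the authors' scaled values, and fold changes were taken on the log2(value + 1) scale, where changes of low features come out too small. The 6 libraries summed to between 8345034 and 9327855 scaled values, with 26531 to 27640 features above 0. The opa1 RNAi libraries were less alike (r = 0.956 to 0.973 across features, which are not independent replicates) than the combined RNAi libraries (0.970 to 0.971), and r between libraries of the 2 groups was 0.963 to 0.972. Of the opa1 RNAi libraries, replicate 2 stood farthest from the other two, with a median absolute deviation of 0.337 on the log2 scale, against 0.197 and 0.302 for replicates 1 and 3 and 0.196 to 0.217 for the combined RNAi libraries.

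More of the called features were lower than higher when drp1 RNAi was added. Of 20681 features tested with limma over all tail libraries, 62 were called at an adjusted p under 0.05, which is 0.300%. There were 17 higher (0.0822%) and 45 lower (0.218%) in combined RNAi tails, and 8 and 19 of these changed more than 2-fold. The rises ran from 0.45 to 6.04 with a median of 0.89 on the log2 scale, the falls from -4.26 to -0.43 with a median of -0.96, and the median of all tested features was 0.03. In bulk tails, fewer cells of a type and less RNA per cell cannot be told apart.

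The balance of rises and falls depended on a single library. Without replicate 2 of the opa1 RNAi tails 145 features were called, 94 higher and 51 lower, and 51 of the 62 were among them. Without replicate 1 of the opa1 RNAi tails 31 were called, and without replicate 1 or replicate 2 of the combined RNAi tails 29 and 32. At an unadjusted p under 0.05 there were 1333 features.

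The calls came mostly from features with high scaled values, which do not correct for transcript length. With the tested features in 4 equal classes by mean value, the highest class gave 45 of the 62 and the lowest gave 1, with a median SE of 0.13 and 0.66 on the log2 scale. A small difference in a low feature was therefore not detectable with 3 libraries a group. The 45 lower features made up 0.720%, 0.685% and 0.649% of the scaled total in opa1 RNAi tails and 0.354%, 0.357% and 0.376% in combined RNAi tails. The higher features, without the most abundant of them, went from 0.151%, 0.143% and 0.133% to 0.269%, 0.277% and 0.256%. These shares describe features that the same contrast chose.

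**Figure D1:**
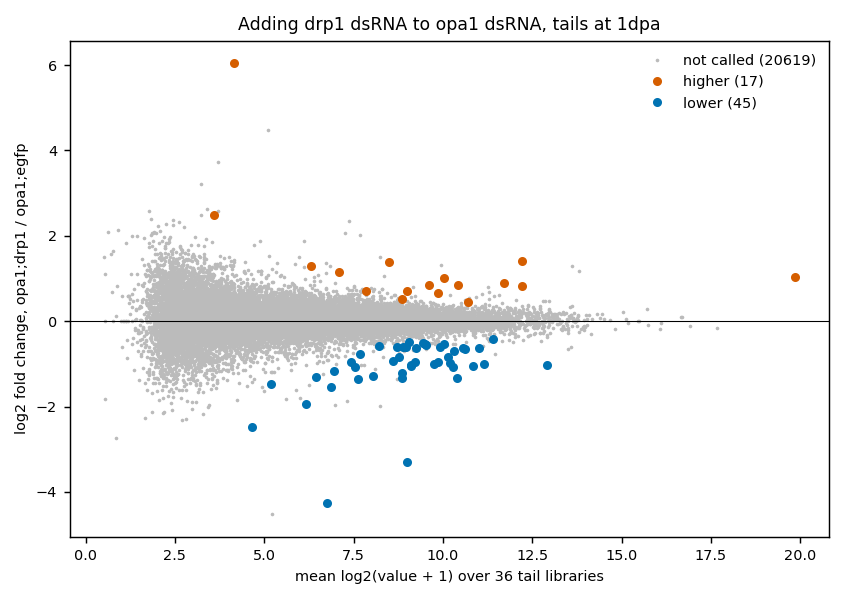
Log2 fold change of combined over opa1 RNAi tails at 1dpa (vertical axis) against the mean log2(value + 1) over 36 tail libraries (horizontal axis), 1 point per tested feature. The 17 features called higher and the 45 called lower lie mostly to the right, where the grey cloud of features that were not called is narrow.

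SMED30027152 fell strongly in every combined RNAi library. It is the feature known from an earlier look at these data to fall wherever drp1 dsRNA was given, and it is not named as drp1 here. Its scaled values were 1029, 1262 and 950 in opa1 RNAi tails and 116, 74.9 and 146 in combined RNAi tails. Every combined RNAi library lay far below every opa1 RNAi library, while control tails, at 1133, 1098 and 1069, lay within the opa1 RNAi range. Its log2 fold change was -3.30 with an SE of 0.17, a 9.82-fold fall (limma, adjusted p = 3.02e-16). It fell alike at the other times, by log2 fold changes of -3.57 at 0dpa, -3.49 at 6hpa and -3.26 at 2dpa. In whole bodies at 1dpa, drp1 RNAi alone took it from 126, 132 and 123 CPM (counts scaled to library size) in egfp controls to 7.16, 8.78 and 9.78 CPM, which is -3.88 on the log2 scale (edgeR, adjusted p = 2.61e-24). Since the feature was chosen for these falls, they are given as a description and not as separate evidence.

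SMED30010319, known from the same earlier look to fall wherever opa1 dsRNA was given, was low in both groups. It stood at 60.6, 93.9 and 56.3 in opa1 RNAi tails, at 69.7, 101 and 59.6 in combined RNAi tails and at 291, 261 and 259 in controls. The opa1 and combined ranges overlapped, and both lay below the controls, which the earlier look had already shown. The log2 difference between combined and opa1 RNAi tails was 0.13 with an SE of 0.23 (limma, adjusted p = 0.994), so no difference between them was detectable in this feature.

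The largest changes by fold came from features that were at or near 0 in some libraries. SMED30020974 was at 0.803, 0 and 0 in opa1 RNAi tails and at 69.5, 83.3 and 86.1 in combined RNAi tails. The groups were far apart, but controls spread from 0 over 16.7 to 57.5, so the feature varied widely between replicates of 1 group. On the log2 scale the change was 6.04 with an SE of 1.17 (adjusted p = 0.00716 by limma), and the call was lost on the deposited TPM table (1.29, adjusted p = 0.169) and with a robust prior (adjusted p = 0.0584). The TPM of a library sum to far less than its scaled values, so adding 1 before the log can shrink changes more there. How much of the drop this makes was not tested, here or for SMED30003823 and SMED30011449 below.

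SMED30003823 was listed at 0 in all 3 opa1 RNAi libraries and at 8.08, 4.81 and 2.43 in combined RNAi tails. Controls, at 2.57, 10.2 and 4.05, overlapped the combined RNAi tails. The log2(value + 1) difference of 2.50 (SE 0.50; limma, adjusted p = 0.00971) lost its call without replicate 1 of the opa1 RNAi tails and without replicate 1 or replicate 2 of the combined RNAi tails, where the adjusted p reached 0.137. It was also lost with a pseudocount of 5, at 0.98 (adjusted p = 0.392), and on the deposited TPM table, at 0.21 (adjusted p = 0.824). A limma fit of only the 6 libraries compared gave an adjusted p of 0.486, and one of the 9 tail libraries at 1dpa gave 0.237.

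SMED30011449 was at 80.5, 83.1 and 75.0 in opa1 RNAi tails and at 0, 0 and 72.6 in combined RNAi tails. The fall thus came from 2 libraries listed at 0, and the remaining library, at 72.6, lay just under the opa1 RNAi range. The log2 fold change was -4.26 with an SE of 0.82 (limma, adjusted p = 0.00668). Without replicate 1 or replicate 2 of the combined RNAi tails it was -3.23 and not called, with an adjusted p up to 0.165. On the deposited TPM table it was -1.34 and not called (adjusted p = 0.195). With limma on only the 6 libraries compared the adjusted p was 0.595, and on the 9 tail libraries at 1dpa it was 0.246.

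Features listed at 0 in all 3 libraries of 1 group and above 0 in all 3 of the other were uncommon among all 36035 in the table. There were 109 at 0 in the 3 opa1 RNAi libraries and above 0 in the 3 combined RNAi libraries, 73 with the reverse pattern and 4040 at 0 in all 6. A 0 in these values can be a failed estimate as well as an absent transcript.

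The most abundant feature of the tails, SMED30032887, was among the rises. It took 4.18%, 4.43% and 4.08% of the scaled total in opa1 RNAi tails and 8.25%, 8.20% and 8.35% in combined RNAi tails, with 9.86%, 9.52% and 9.71% in controls. The 3 groups did not overlap, and combined RNAi tails lay between the others. The log2 fold change over opa1 RNAi tails was 1.02 with an SE of 0.23 (adjusted p = 0.0284 by limma), and the call held without replicate 2 of the opa1 RNAi tails but was lost without any of the other 5 libraries, where the adjusted p reached 0.147.

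**Figure D2:**
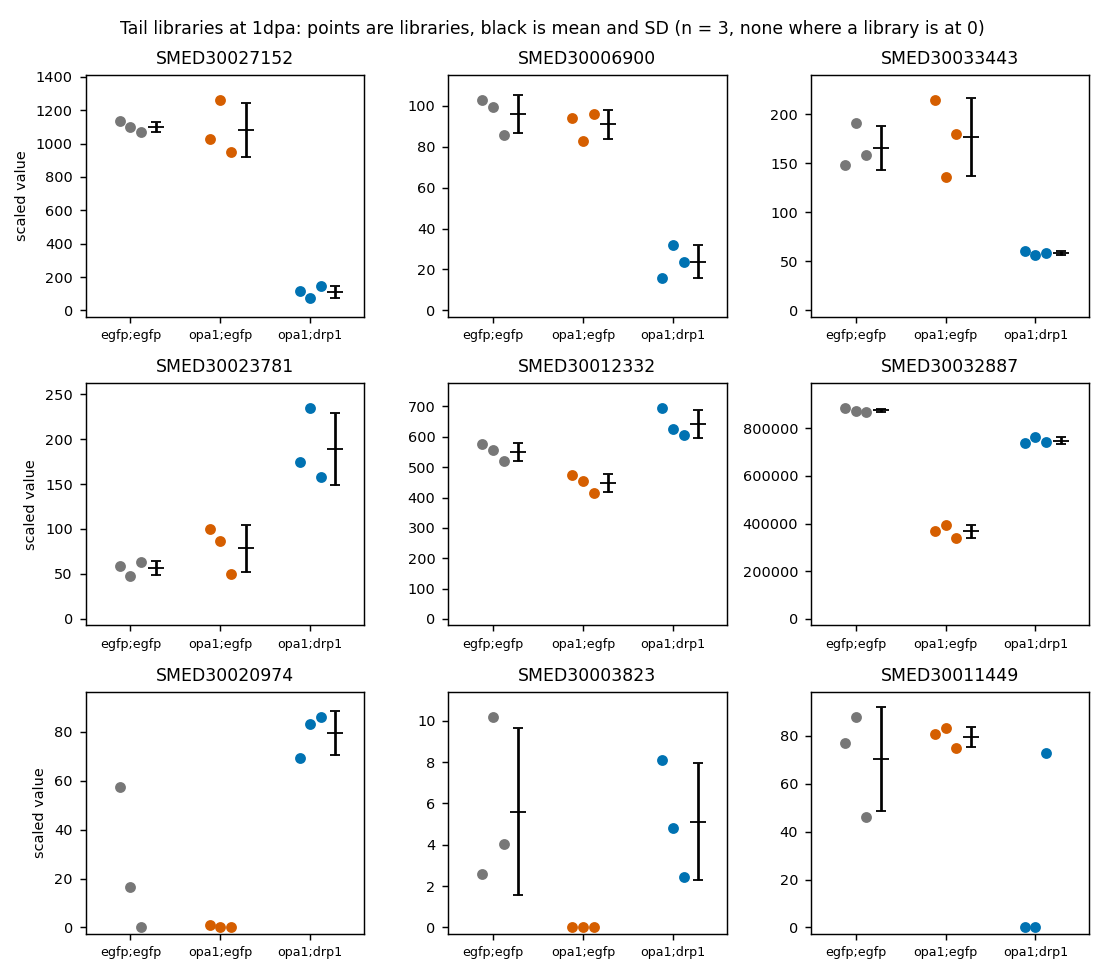
Scaled value (vertical axis, linear) of 9 named features in each tail library at 1dpa, by group on the horizontal axis, with the mean and SD of 3 libraries in black except where a library is at 0. The opa1;drp1 libraries of SMED30027152 lie at 74.9 to 146, far under the other groups, while those of SMED30011449 are split between 0 and 72.6.

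Among called features, separation of the groups was near complete. This follows largely from calling them on these same libraries and is given as a description. All 17 rises and 43 of the 45 falls had no overlap between the 3 opa1 RNAi and the 3 combined RNAi libraries, where 6.37% and 5.44% of all tested features had none in each direction. SMED30000143 and SMED30017810, singled out after their values were seen, were the exceptions. SMED30017810 stood at 37.4, 43.3 and 5.58 in opa1 RNAi tails and at 1.74, 5.86 and 2.40 in combined RNAi tails, so that opa1 RNAi replicate 3 lay among the combined ones.

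Beside the control tails at 1dpa, the 2 lists looked different, although these comparisons share libraries with the one that chose the lists, so their values are given side by side only. The 17 higher features had a median log2 fold change of -1.25 in opa1 RNAi against control tails and of -0.12 in combined RNAi against control tails. For the 45 lower features the medians were 0.38 and -0.43. The same medians over all tested features were -0.02 and 0.01.

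The group means of the other times come from other libraries than those of the 1dpa comparison. All tail comparisons share the spread of a feature, which was estimated over the 36 tail libraries, so features with a small spread are favoured at every time, and the background shares do not allow for this. At 2dpa, 32 of the 62 were called in the same direction, 6 of the 17 higher (background 0.266% of all features) and 26 of the 45 lower (background 0.469%), and none in the opposite direction. That is 51.6% of the 1dpa calls and 21.1% of the 2dpa calls. At 0dpa the count was 17, with 4 higher (background 0.218%) and 13 lower (background 0.546%), or 27.4% and 10.8% of the calls of each time. At 6hpa it was 21, with 7 higher (background 2.40%) and 14 lower (background 2.36%), or 33.9% and 2.13%. The exceptions, named after their values were seen, were SMED30003823, which was lower at 0dpa with a log2 fold change of -2.36, and SMED30026807 and SMED30029055, which fell at 1dpa and rose by 0.38 and 0.44 at 6hpa (limma, adjusted p = 0.0450 and 0.0447). The 2dpa count fell to 20 without replicate 1 of the opa1 RNAi tails at 1dpa, and to 19 and 20 without replicates 1 and 2 of the combined RNAi tails at 1dpa. The 6hpa count fell to 12, 10 and 11 without the same libraries. The 1dpa list itself was shorter without these libraries, at 31, 29 and 32 features in place of 62. It held 145 without replicate 2 of the opa1 RNAi tails at 1dpa, where the 2dpa and 6hpa counts were 41 and 27. The 0dpa count fell to 10 without replicate 1 of the combined RNAi tails at 1dpa, to 9 without replicate 3 of the opa1 RNAi tails at 0dpa and to 8 without replicate 2 or replicate 3 of the combined RNAi tails at 0dpa.

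Of the 62, 11 were called in the same direction at all 4 times, 2 higher and 9 lower, and 21 were called at 1dpa alone. The sign was the same at all 4 times for 36, 9 of the 17 and 27 of the 45. The share of all features with these patterns over the 4 times is not given here, so the counts are a description and no measure of persistence. The features described next, beside SMED30027152, are those among the 11 with the largest change at 1dpa in each direction, and they were picked after their values were seen.

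SMED30006900 stood at 94.2, 82.8 and 95.9 in opa1 RNAi tails at 1dpa and at 15.7, 32.0 and 23.9 in combined RNAi tails. No library of the groups overlapped, and controls, at 103, 99.5 and 85.5, were close to the opa1 RNAi values. Its log2 fold change was -1.94 with an SE of 0.24 (limma, adjusted p = 3.62e-06), with -2.32 at 0dpa, -1.16 at 6hpa and -2.42 at 2dpa. In whole bodies at 1dpa it was at 9.81, 10.9 and 8.73 CPM with egfp, at 17.1, 17.4 and 18.8 CPM with opa1 and at 6.42, 5.77 and 3.13 CPM with drp1 RNAi. There opa1 RNAi raised it and drp1 RNAi lowered it, by log2 fold changes of 0.85 and -0.94 (edgeR, adjusted p = 0.000333 and 0.000773), and both had the same egfp controls.

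SMED30033443 fell from 215, 136 and 180 to 60.9, 56.3 and 59.0. The combined RNAi libraries were tightly grouped below all opa1 RNAi and all control libraries, the latter at 149, 191 and 158. On the log2 scale the change was -1.55 with an SE of 0.19 (limma, adjusted p = 5.43e-06), with -0.94 at 0dpa, -0.90 at 6hpa and -1.56 at 2dpa.

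SMED30023781 rose from 100, 86.2 and 49.7 to 175, 234 and 158. Controls, at 58.7, 48.2 and 62.9, lay near the lower end of the opa1 RNAi tails, so the combined RNAi tails stood above both other groups. The log2 fold change was 1.29 with an SE of 0.27 (limma, adjusted p = 0.0139), with 1.52 at 0dpa, 0.95 at 6hpa and 1.68 at 2dpa.

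SMED30012332 rose from 476, 453 and 417 to 694, 626 and 606, with controls in between at 578, 557 and 520. The 3 groups did not overlap. Its log2 fold change was 0.52 with an SE of 0.10 (limma, adjusted p = 0.00792), with 0.42 at 0dpa, 0.49 at 6hpa and 0.43 at 2dpa. In whole bodies it was not called in any of the 6 comparisons among egfp, opa1 and drp1 RNAi.

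Whether the effect of adding drp1 differed between times was tested as an interaction. Against 0dpa, 86 features were called (0.416%), 55 with a higher and 31 with a lower effect at 1dpa. Leaving the most abundant feature out of the scaling gave 219, of which 81.7% were higher against 64.0%. The deposited TPM table, which holds only part of the features, gave 16, of which 81.2% were higher. With no filter on low values the balance turned, with 6 higher and 11 lower. The count against 0dpa depended on single libraries. Without replicates 1, 2 and 3 of the 1dpa opa1 RNAi tails it was 12, 618 and 22, and without replicates 1 and 3 of the 1dpa combined RNAi tails 8 and 44. Lower effects then outnumbered higher ones without replicate 1 (9 against 3) or replicate 3 (14 against 8) of the 1dpa opa1 RNAi tails and without replicate 1 (5 against 3) or replicate 2 (36 against 24) of the 1dpa combined RNAi tails, while without replicate 2 of the 1dpa opa1 RNAi tails there were 524 higher and 94 lower. Without replicates 1 and 2 of the 0dpa opa1 RNAi tails it was 241 and 7, and without replicates 1, 2 and 3 of the 0dpa combined RNAi tails 149, 16 and 36, with 4 lower against 3 higher without replicate 2 of the former and 9 against 7 without replicate 2 of the latter.

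Against 6hpa, 55 features were called (0.266%), 27 with a higher and 28 with a lower effect at 1dpa. Leaving out the most abundant feature gave 75, of which 85.3% were higher against 49.1%, and the TPM table gave 170, of which 97.6% were higher, with the median of all features shifted to 0.22. Without replicates 1, 2 and 3 of the 1dpa opa1 RNAi tails the count was 21, 126 and 21, and without replicates 1 and 2 of the 1dpa combined RNAi tails 15 and 7. Without replicate 2 of the 6hpa opa1 RNAi tails it was 129, and without replicate 2 of the 6hpa combined RNAi tails 26. The balance of this interaction turned both ways, with 13 higher and 40 lower effects without replicate 1 of the 6hpa opa1 RNAi tails, 7 and 14 without replicate 3 of the 1dpa opa1 RNAi tails, and 87 and 42 without replicate 2 of the 6hpa opa1 RNAi tails.

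Against 2dpa limma called 0 features (0%), with 1157 at an unadjusted p under 0.05. The TPM table gave 2 and testing without a filter gave 2. Without replicate 2 or replicate 3 of the 1dpa opa1 RNAi tails, or replicate 2 or replicate 3 of the 1dpa combined RNAi tails, it was 1 each time. Among the 62, the interaction was called for 10 against 0dpa, 11 against 6hpa and 0 against 2dpa, and the unadjusted p was under 0.05 for 40, 44 and 19. Of all 20681 features tested with limma, 86, 55 and 0 were called, and 2720, 2596 and 1157 had an unadjusted p under 0.05. The counts among the 62 share the 1dpa libraries that chose them and are given as a description.

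SMED30022580 had a clear time course. In opa1 RNAi tails it was at 0, 1.95 and 2.40 at 0dpa, at 167, 42.9 and 91.3 at 6hpa, at 722, 654 and 655 at 1dpa and at 393, 289 and 339 at 2dpa. In combined RNAi tails it was at 3.71, 7.96 and 1.81, then at 4.24, 17.6 and 17.7, at 222, 195 and 163, and at 140, 175 and 149. The groups overlapped at 0dpa and were apart at the 3 later times. Control tails at 1dpa, with 185, 215 and 258, lay close to the combined RNAi tails, which did not hold at the times on either side. At 6hpa controls were at 17.6, 35.0 and 34.0, reaching above the combined RNAi tails. At 2dpa they were at 80.3, 100 and 94.6, below every combined RNAi library. The effect of adding drp1 at 1dpa less that at 0dpa was -3.0 on the log2 scale with an SE of 0.64 (limma, adjusted p = 0.0325), while the 1dpa difference itself, -1.81, was not called (adjusted p = 0.0788).

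**Figure D3:**
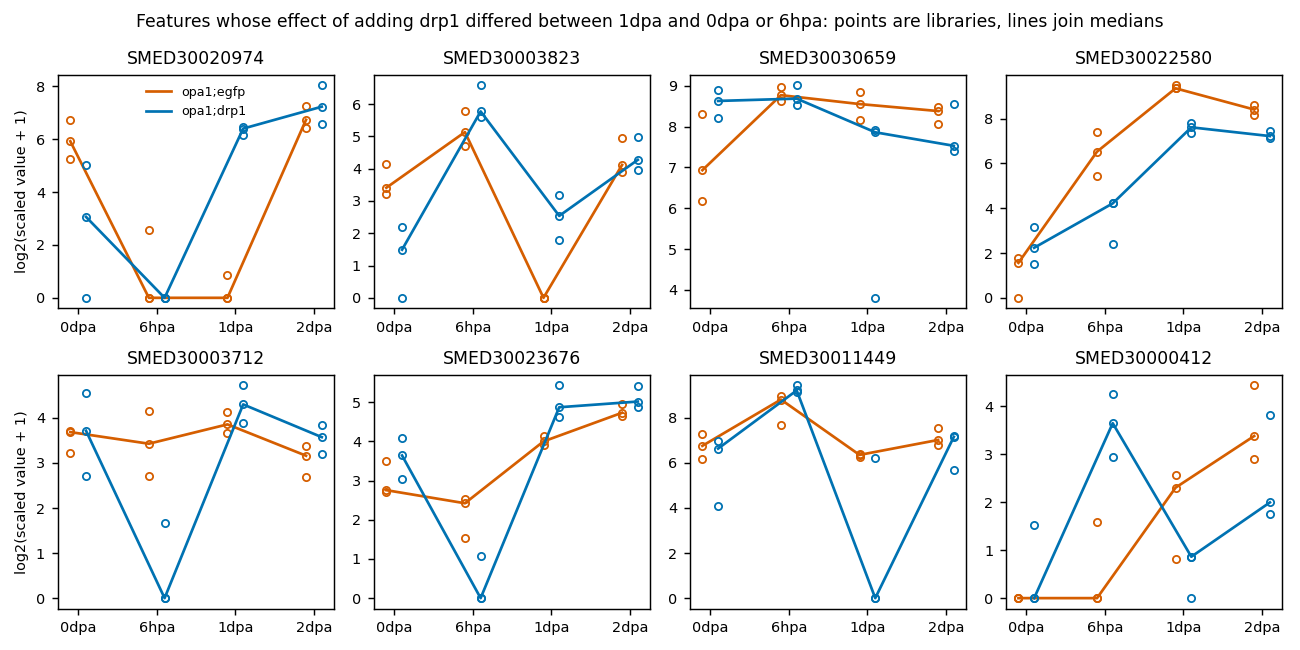
Log2(scaled value + 1) (vertical axis) at 0dpa, 6hpa, 1dpa and 2dpa (horizontal axis) for the 8 features chosen from the interactions, with a point for each library and a line through the medians of opa1;egfp and opa1;drp1 tails. SMED30022580 climbs in both groups and stays lower with opa1;drp1 from 6hpa on, while at 1dpa SMED30030659 has 1 and SMED30011449 has 2 low opa1;drp1 libraries.

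In opa1 RNAi against control tails at the other times, whose group means use none of the 6 libraries compared at 1dpa but whose spread comes from the same fit, some of the features were called in the opposite direction. At 2dpa, 27 of the 62 were, with 9 of the 17 higher features lower after opa1 RNAi (background 0.459%) and 18 of the 45 lower features higher (background 0.556%). That is 43.5% of the 62 and 12.9% of that comparison's calls. SMED30017810 alone was called in the same direction, with -2.71. At 0dpa the count was 12, 6 of the higher list (background 0.135%) and 6 of the lower (background 0.111%), which is 19.4% and 23.5%. At 6hpa it was 11, 7 of the higher list (background 0.919%) and 4 of the lower (background 0.614%), which is 17.7% and 3.47%, with 3 called in the same direction. The 2dpa count was 17 without replicate 1 of the opa1 RNAi tails at 1dpa, and the 6hpa count was 6 and 7 without replicates 1 and 3 of the combined RNAi tails at 1dpa. The list itself then held 31, 29 and 53 features in place of 62.

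**Figure D4:**
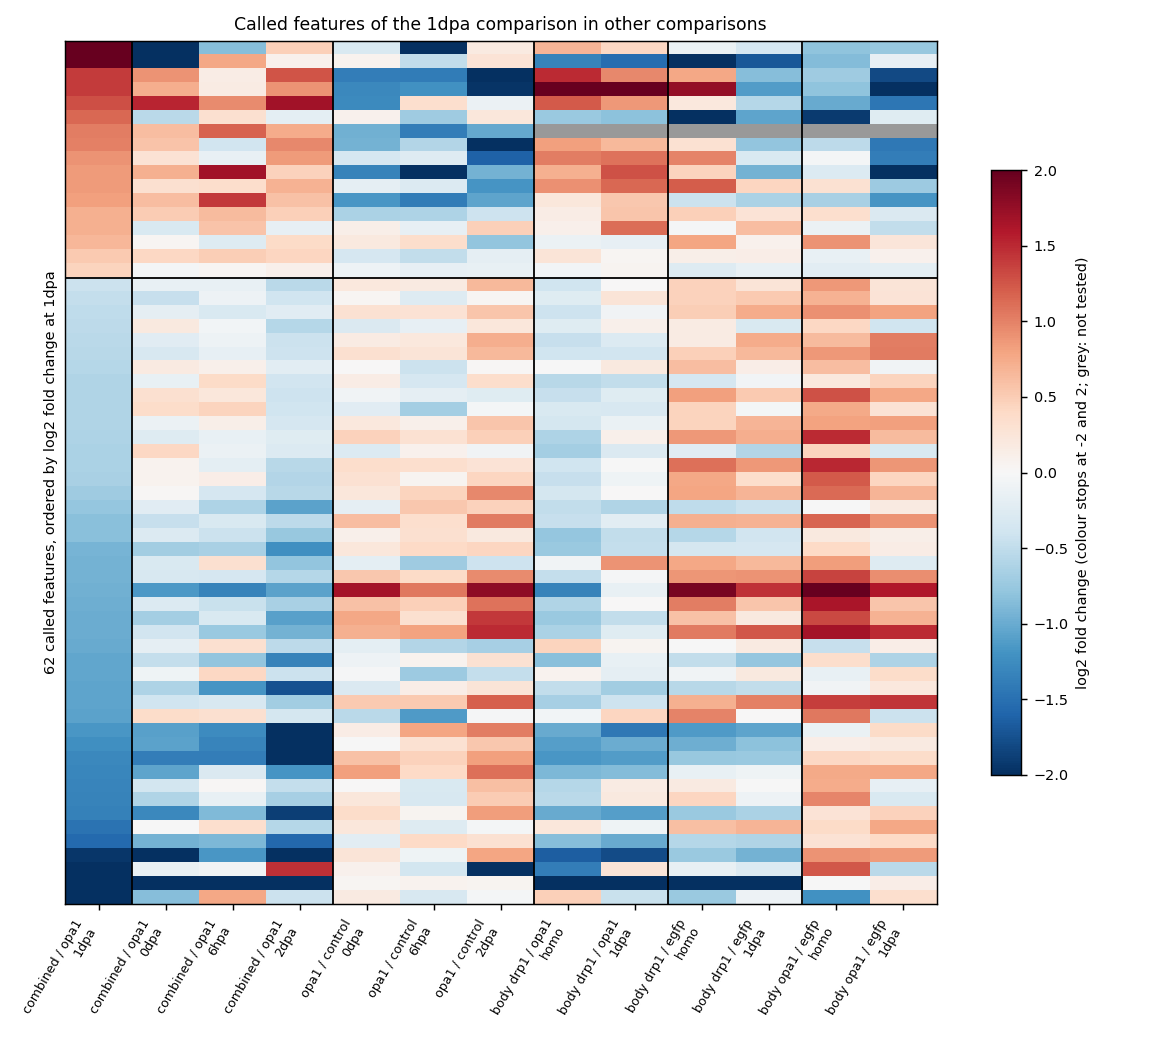
Log2 fold change (colour, stopping at -2 and 2, grey where not tested) of the 62 called features, 1 per row in order of their 1dpa change, in the tail comparisons named below each column and in whole bodies. The 17 higher features are above the line, and the 1dpa column chose the features; most of the lower features are blue again in the 2dpa column, where 26 of the 45 were called lower.

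The whole bodies are a separate experiment in which drp1 was knocked down alone, and 61 of the 62 features, 16 of the higher and 45 of the lower list, were tested there with edgeR. SMED30032887 was not analysed here in whole bodies. The 3 whole-body comparisons at each time share libraries with each other, so they are set side by side. In drp1 against opa1 RNAi at homo, 33 of the 45 lower features were lower (background 2.41%) and 0 higher, and 8 of the 16 were higher (background 1.58%) and 0 lower. These 41 are 67.2% of the 61 and 4.50% of that comparison's calls. At 1dpa, 18 of the 45 were lower (background 5.61%) and 2 higher, and 10 of the 16 were higher (background 9.30%) and 0 lower, which is 45.9% of the 61 and 0.820% of the calls. The 2 that went the other way were SMED30008225, with 0.90, and SMED30032806, with 0.43 (edgeR, adjusted p = 1.21e-05 and 0.0264).

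Against egfp controls, opa1 RNAi in whole bodies gave mostly the opposite direction. At homo 35 of the 45 lower features were higher (background 19.2%), 1 was lower (SMED30011449, -1.22), 8 of the 16 were lower (background 15.6%) and 3 higher. At 1dpa 25 of the 45 were higher (background 4.57%) and 5 lower, and 9 of the 16 were lower (background 6.64%) and 0 higher.

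With drp1 RNAi alone the 45 lower features did not move together. At homo 14 were lower (background 10.5%) and 23 higher (background 13.7%), and at 1dpa 12 were lower (background 3.36%) and 19 higher (background 3.83%). Of the 16 higher features, 7 were higher and 3 lower at homo, and 2 higher and 5 lower at 1dpa. In each of these whole-body comparisons a library left out of the tails at 1dpa changed the list itself, so the counts that follow are not out of the same number. The tail list held 31 features without replicate 1 of the opa1 RNAi tails, and 29 and 32 without replicates 1 and 2 of the combined RNAi tails. Without replicate 1 of the opa1 RNAi tails, 21 features were opposite to opa1 RNAi and 26 in the direction of drp1 against opa1 RNAi at homo, in place of 43 and 41, and 7 followed drp1 against egfp at 1dpa, in place of 14. Without replicates 1 and 2 of the combined RNAi tails the homo counts were 22 and 25, and 27 and 27, those in the direction of drp1 against egfp were 13 and 13 at homo, in place of 21, and 7 and 7 at 1dpa. Without replicate 2 of the combined RNAi tails the 1dpa counts for opa1 RNAi and for drp1 against opa1 RNAi were 22 and 17, in place of 34 and 28. Without replicate 2 of the opa1 RNAi tails, which lengthened the list to 145, 93 were opposite to opa1 RNAi at homo.

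The 45 lower features could be divided by their whole-body response to drp1 RNAi alone, a division made after the values were seen and given without a test. There were 12 lower than egfp at both whole-body times, 18 higher at both, 6 higher at 1 time, 2 lower at 1 time and 7 called at neither. The share of all features in each of these classes is not given here, so the class sizes are a description only. The 12, which include SMED30027152, SMED30006900 and SMED30033443, had a median log2 fold change of -1.19 in combined against opa1 RNAi tails at 1dpa, with -1.01 at 0dpa, -1.03 at 6hpa and -1.82 at 2dpa, and 7, 10 and 11 of them were called lower at those other times. The 18 had medians of -0.68, -0.27, -0.18 and -0.56, and 3, 3 and 11 of them were called lower. Of all tested features, 0.546%, 2.36% and 0.469% were called lower at 0dpa, 6hpa and 2dpa. In opa1 RNAi against control tails at 2dpa, 12 of the 18 and 3 of the 12 were called higher (background 0.556%), with medians of 0.60 and 0.38. The 2dpa tail comparisons share the opa1 RNAi libraries.

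Control tails, whose means do not enter the comparison of combined with opa1 RNAi tails although the fit took its spread from them too, were compared between times for the called features. From 0dpa to 6hpa, 8 of the 45 lower features rose (background 19.7%) and 18 fell (background 23.5%). From 0dpa to 1dpa, 8 rose and 8 fell (background 6.88% in each direction), and from 0dpa to 2dpa 4 rose (background 9.70%) and 18 fell (background 8.33%). Of the 17 higher features, 6 rose and 4 fell by 6hpa, 3 rose and 4 fell by 1dpa, and 6 rose and 5 fell by 2dpa. These counts come from limma, and the 3 comparisons share the 0dpa control libraries.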

How the data were processed

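Per the labels' protocols, RNA was extracted with TRIGene reagent and 400 ng of total RNA per sample went into libraries made with an NEBNext Ultra RNA SMARTER kit. The names of the deposited tables give kallisto, but neither its version nor the index or build is given in the sources used here. In the tails the table is a signal that the authors deposited already scaled, by a method not given in the sources used here. Over 12933 features, 97.7% of its values came within 0.01 (log2) of the deposited TPM times a constant per feature and a constant per library. That relation does not by itself show how the values were scaled. As the scaling is not given, whole reads were not recovered and the depth of the tails is unknown. The deposited TPM table of the tails, used as an alternative only, holds 27444 of 36035 features and sums to 473866 to 744452 per library. The whole-body table holds estimated counts deposited by the authors, 10611093 to 14328908 per library, which were rounded here.

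Tail values were tested as log2(value + 1) with limma 3.58.1 (trend, eBayes; R 4.3.3) over 36 libraries and 12 group means, keeping features that reached 10 in 3 or more libraries. Whole-body counts were tested with edgeR 4.0.16 (TMM, filterByExpr, quasi-likelihood) over 24 libraries and 8 group means, for 22889 features, and CPM are from that fit. Benjamini-Hochberg adjustment of p-values ran over all features of a comparison, and called means an adjusted p under 0.05. The scripts were tested on simulated data.

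Features, lists and tests were chosen with earlier results of these data known. Named features are the 2 largest rises and 2 largest falls among features that were called and averaged 1 or more on the log2 scale (and, for the 1dpa comparison, groups that do not overlap), for that comparison and each interaction, the most abundant feature, and the 2 earlier linked to drp1 and opa1 dsRNA. The lists of genes and cell type markers could not be used, since 0 features could be matched to names. Alternatives changed the pseudocount, filter, scaling, unit, libraries in the fit, replicate block, prior, test and single libraries.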

Additional observations from a re-analysis of the deposited data

Results flagged for a closer look

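The effect of adding drp1 RNAi was called different between 1dpa and an earlier time for the 8 pairs of feature and time named here, each by limma's test of the interaction. These single calls were not repeated under the alternatives, and some rest on values near 0 or on 1 library. The count of called interactions fell as low as 7 against either time with a library left out. Values are the log2 effect at 1dpa less that at the other time. None of these interactions was called against 2dpa.

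Against 0dpa, SMED30020974 differed by 9.31 (SE 1.66, adjusted p = 0.00723). At 0dpa it stood at 59.5, 104 and 36.6 in opa1 RNAi tails and at 7.35, 0 and 31.4 in combined RNAi tails, the reverse order of 1dpa, and at 6hpa 5 of the 6 libraries of the 2 groups were at 0. SMED30003823 differed by 4.86 (SE 0.71, adjusted p = 0.00109), with 8.37, 16.6 and 9.64 in opa1 RNAi tails and 0, 3.58 and 1.81 in combined RNAi tails at 0dpa. SMED30030659 differed by -3.43 (SE 0.78, adjusted p = 0.0397). Its values at 0dpa were 121, 71.9 and 316, then 394, 297 and 475 with drp1 added, and at 1dpa 374, 456 and 284, then 231, 239 and 13.0, so 1 combined RNAi library was far below the others. SMED30022580 differed by -3.0 (SE 0.64, adjusted p = 0.0325), with the values given above.

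Against 6hpa, SMED30003712 differed by 3.30 (SE 0.72, adjusted p = 0.0353), with 9.76, 5.57 and 16.8 in opa1 RNAi tails and 0, 0 and 2.18 in combined RNAi tails at 6hpa, and overlapping groups at 1dpa. SMED30023676 differed by 2.77 (SE 0.60, adjusted p = 0.0353), with 1.92, 4.36 and 4.79, then 0, 0 and 1.11 at 6hpa. SMED30011449 differed by -5.04 (SE 1.16, adjusted p = 0.0463), with 203, 500 and 446, then 560, 590 and 688 at 6hpa. SMED30000412 differed by -4.41 (SE 1.00, adjusted p = 0.0449), with 0, 0 and 1.98, then 11.5, 18.2 and 6.70 at 6hpa, and values of 4.95 or less in all 6 libraries at 1dpa.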

How the results depend on the processing

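The 62 calls of combined against opa1 RNAi tails became 96 without the 6hpa libraries and 18 with only the 6 libraries compared. Counts were between 51 and 75 under the other pseudocounts, filters, scalings, TPM table, prior, replicate block and 9-library fit (the last and the prior chosen after seeing the data), and were 29 to 145 with a library left out. With the replicate block there were 52 calls, 50 of them among the 62. Same-numbered libraries did not deviate together (r = -0.014, -0.013 and -0.015), so no pairing by number was seen. Such an r cannot exclude that the numbers mark a shared animal or day. Of the 57 calls on TPM, 33 were among the 62, and of the 62 calls with no filter 52 were. The TPM table lacks part of the features, and some of the 62, SMED30032887 among them, are not in it. Those could not be called on TPM, so the 33 does not separate lost calls from missing features. All TPM counts, those of the interactions included, cover only the features in that table. The interaction with 0dpa (86) became 17 with no filter, 219 without the most abundant feature, 16 on TPM, 24 with the replicate block, 297 without the 6hpa libraries and 7 to 618 with a library left out. The interaction with 6hpa (55) became 32 with no filter, 170 on TPM, 22 with the replicate block and 7 to 129. The interaction with 2dpa (0) became 2 with no filter, 2 on TPM and 0 to 1. The causes were not tested. Counting only changes over 2-fold, the calls shared with 0dpa, 6hpa and 2dpa were 8, 7 and 12. With a library left out (chosen after seeing the data) these shared counts were 8 to 21, 10 to 27 and 19 to 41, and the counts opposite to opa1 RNAi tails 6 to 13 at 6hpa and 17 to 32 at 2dpa. In whole bodies they were 13 to 27 (homo) and 7 to 19 (1dpa) for drp1, 21 to 93 and 22 to 46 opposite to opa1, and 26 to 53 and 17 to 37 for drp1 against opa1. The list itself held 29 to 145 features when a 1dpa library was left out, so these counts are not out of the same number. None of the 5 single features tracked changed sign, but the balance of higher and lower calls turned from 17 and 45 to 94 and 51 without replicate 2 of the 1dpa opa1 RNAi tails, and that of the interaction with 0dpa from 55 and 31 to 6 and 11 with no filter. SMED30027152 kept its call under all 18 alternatives, with an adjusted p up to 0.000189, while SMED30003823 lost it under 7 (up to 0.824), SMED30011449 under 6 of 18 (up to 0.595) and SMED30032887 under 10 of 16 (up to 0.426). Tests on recovered reads were not run, since the scaling of the tail values is not given and whole reads were not recovered.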
